A study of Homo sapiens with 47 samples.

Results

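The genes described here are the zinc finger genes of chromosome 19, taken as the protein-coding genes of that chromosome in the GENCODE annotation of hg19 (release 44) whose symbol is ZNF followed by a number. The rule uses no measured value and found 249 of 20163 protein-coding genes. Chromosome 19 held 1231 other protein-coding genes, and 266 numbered ZNF genes lay on other chromosomes. A promoter peak was a peak within 1 kb of the start of any transcript of the gene annotated as protein-coding (the gene's own 5′ end where it had no such transcript), and a body peak was a peak over the gene that lay over 1 kb from every such start of any protein-coding gene. Starts of non-coding transcripts were not counted. The members had a median of 4 annotated starts and at most 19. Another protein-coding gene started inside the window of 54 members, and for 20 of these it was only another member, so that such neighbours can share a peak.

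The study asked whether synthetic activators placed at estrogen receptor bound sites (ERBSs) are sufficient to drive transcription, and no ERBS it targeted lies at a gene described here. It used Ishikawa cells, a human endometrial adenocarcinoma line, kept in hormone-depleted medium and transfected with a catalytically dead Cas9 fused either to VP16(10x), a viral activation domain in tandem copies, or to p300(core), the acetyltransferase domain of p300. The guide RNAs (gRNAs) of each transfection sent the fusion to Pool 1, Pool 2 or Pool 3 of the ERBSs, to sites beside them (Adjacent) or to the promoter of IL1RN, which served as the control. The label of the H3K27ac library of dCas9-VP16(10x) Adjacent replicate 1 also names IL1RN, so that this library may have carried IL1RN gRNAs as well. Transfected cells were drug-selected and harvested at the same time after transfection in every group, and the expression was transient, in a cell line with no untransfected group among the samples used here. Peaks of H3K27ac, an acetylated histone mark of active promoters and enhancers, and of RNA polymerase II (RNAPII) were listed for 20 libraries each, from both constructs, 5 gRNA pools and 2 replicates. Peaks of HA, the tag carried by the fusions, were listed for 7 libraries, namely dCas9-VP16(10x) with all ERBS gRNAs, with Adjacent gRNAs or with IL1RN gRNAs and dCas9-p300(core) with all ERBS gRNAs.

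Most numbered zinc finger proteins of chromosome 19 carry a tandem array of zinc fingers that reads DNA and a KRAB domain that recruits the corepressor TRIM28, which brings histone deacetylases, a histone methyltransferase and heterochromatin proteins to the bound site. The family grew by tandem duplication, its genes lie in clusters of close relatives, and many of its proteins silence retroelements. The members themselves are usually transcribed at modest levels from short promoters, and some are expressed only in early development or in the germ line.

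The lists gave each peak's position, fold enrichment and -log10 p, so that the read depth was unknown and the number of peaks stood in for it. H3K27ac lists held 1805 to 32052 peaks, RNAPII lists 16041 to 40757 and HA lists 141 to 30740. The H3K27ac list of dCas9-VP16(10x) Pool 3 replicate 1 stood apart with 5322 peaks, and the peak names of Pool 1 replicate 2 of that construct carried the letter used for p300, which leaves its construct in doubt. In part of the lists the peak names also began with a number, called a run identifier here. No label says what this number stands for. All 10 RNAPII libraries of p300(core) had 1 identifier, 7 of VP16(10x) had another and 3 had none. Whatever the identifier marks therefore cannot be told apart from the construct for RNAPII. In the HA pair of dCas9-VP16(10x) with ERBS gRNAs, 98.9% of the peaks of the first list were overlapped by the second, and in the Adjacent pair 97.7%. Whether the lists of an HA pair come from separate libraries cannot be told from the files, and each HA list is given on its own. Epithelial marker genes such as KRT8, EPCAM, PAX8 and ESR1 had promoter peaks in 11 to 20 H3K27ac and 19 to 20 RNAPII libraries for 8 of 8 markers, and PTPRC, CD3E, DES, MYOD1, ALB and APOA1, which mark leukocytes, muscle and hepatocytes, had none in any of these libraries. Of the neuronal markers, SYP had an RNAPII peak in 20 libraries and RBFOX3 in 11.

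RNAPII sat at most of these promoters. In the 20 RNAPII libraries 67.1% to 88.0% of the members had a promoter peak (median 80.9%), against 47.1% to 68.3% of all protein-coding genes (median 60.5%), and the members' share was the higher in all 20 libraries. Of the members, 141 (56.6%) had an RNAPII peak in every library and 22 (8.84%) in none, where the shares over all protein-coding genes were 42.1% and 28.7%. Numbered ZNF genes of other chromosomes gave 62.0% and 12.03%, close to the members. The peaks were of modest height, since the members' median fold enrichment was below that of all genes in 19 of the 20 libraries.

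H3K27ac was less regular at the same promoters, and its share differed with the size of the list and with the construct. In the 8 libraries under 12000 peaks, 1.20% to 24.5% of the members had an H3K27ac promoter peak against 4.40% to 31.4% of all genes, and the members' share was the lower in all 8. In the 12 libraries with 12000 peaks or more, 49.4% to 84.7% of the members had a peak against 45.2% to 64.2% of all genes, and the members' share was the higher in 9. The short lists were mostly p300(core) lists, and the part of construct was not tested. Among the long p300(core) lists, the members' share was the higher in Adjacent replicate 1 (66.3% against 61.2%). It was the lower in Adjacent replicate 2 (49.4% against 52.3%) and IL1RN replicate 1 (54.6% against 56.7%). Among the long VP16(10x) lists it was the lower in IL1RN replicate 1 (53.8% against 55.9%). No member had an H3K27ac peak in every library, where 2.05% of all genes and 1.88% of the numbered ZNF genes elsewhere did. A peak in at least 10 libraries was found at 124 members (49.8%), and 37 (14.9%) had a peak in none. Over all genes these 2 shares were 46.49% and 31.7%. Over the numbered ZNF genes of other chromosomes they were 68.05% and 15.04%. The 6 members with a peak in 18 or 19 libraries were ZNF83, ZNF865, ZNF580, ZNF581, ZNF274 and ZNF497.

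**Figure D1:**
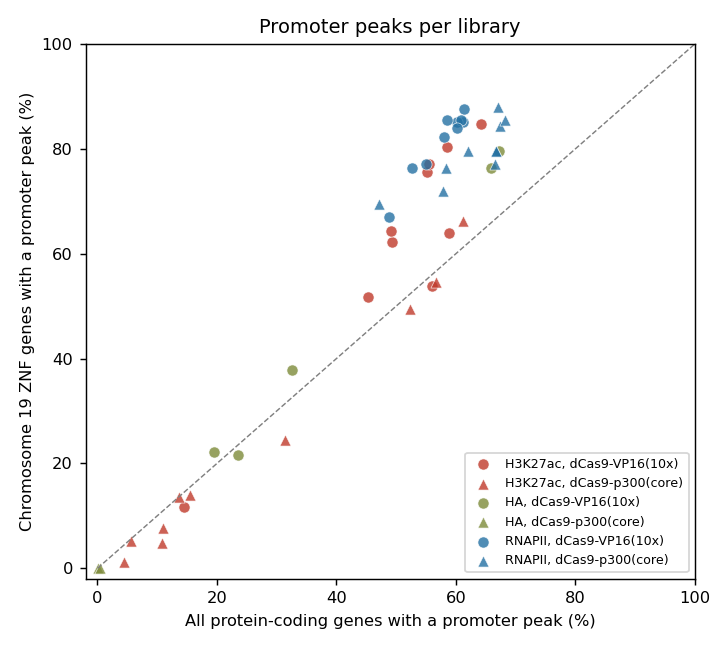
Share of the 249 zinc finger genes of chromosome 19 with a promoter peak (vertical axis, %) against the share of all protein-coding genes (horizontal axis, %), with 1 point per library, colour for the antibody and shape for the construct. All 20 RNAPII libraries lie above the dashed line of equal shares, while the H3K27ac libraries with few peaks lie below it.

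The plot of shares places each library at the percentages given above. Its lower left corner holds both HA lists of dCas9-p300(core), in which 0 of 249 members had a promoter peak, out of 154 and 141 peaks in all.

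The sets of genes without either mark were nested. The 22 members with no RNAPII promoter peak also had no H3K27ac promoter peak, 15 more members had RNAPII in up to 14 libraries without H3K27ac in any, and 0 members had H3K27ac without RNAPII. RNAPII was listed in more libraries than H3K27ac for 223 members and in fewer for 2. The RNAPII lists were also the longer, with a median of 28532.5 peaks against 17563.5. Over all protein-coding genes the median was likewise higher for RNAPII, with 18 libraries against 8 for H3K27ac. The part of list length in the nesting was not tested. By number of libraries, ZNF493 (chr19:21579921-21610379) and ZNF610 (chr19:52839496-52871031) were the members with RNAPII in at least 18 libraries and H3K27ac in at most 2. At ZNF493 the RNAPII fold enrichment ran from 7.10 to 19.1 in 20 libraries (median 11.8), and its H3K27ac peaks in 2 dCas9-VP16(10x) libraries had folds of 7.54 and 12.9. At ZNF610 the RNAPII fold ran from 6.35 to 16.0 in 19 libraries (median 10.6), and H3K27ac was listed in 2 dCas9-VP16(10x) libraries at 7.16 and 7.31. Neither gene had an H3K27ac peak in any dCas9-p300(core) library.

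The tallest RNAPII peaks belonged to 5 members with a peak in every library. ZNF580 and ZNF581 (chr19:56146382-56154836 and chr19:56146825-56156989) share a start region and the same peak, whose fold enrichment was 13.2 to 27.5 (median 20.2) with VP16(10x) and 27.4 to 70.1 (median 42.5) with p300(core). ZNF302 (chr19:35168544-35177302) ran from 10.5 to 30.8 (median 22.3) with VP16(10x) and from 17.6 to 59.8 (median 40.8) with p300(core). ZNF567 (chr19:37178514-37218603) ran from 11.9 to 27.2 (median 20.4) and from 25.8 to 52.4 (median 38.5). At ZNF558 (chr19:8916846-8942990) the ranges were 7.92 to 31.4 (median 18.2) and 16.4 to 59.3 (median 37.0). The median raw fold of each of these 4 peaks was the lower with VP16(10x), with ranges that overlapped, as it was for RNAPII peaks in general: over the 8480 genes with a peak in every library, the log2 fold enrichment was lower by 0.73 with VP16(10x) on average (-0.73). Heights are therefore compared below after each library was centred on these genes.

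Along the chromosome the members formed 16 groups when a gap of over 1 Mb ended a group, and 9 groups of at least 5 genes held 238 of them. Promoters in the pericentromeric group from ZNF101 to ZNF254 (chr19:19779605-24312770, 37 members) were the least marked of the groups with 5 or more genes: the median member had H3K27ac in 2 and RNAPII in 14 of 20 libraries. This group held 14 of the 37 members without H3K27ac and 11 of the 22 without RNAPII, while 14 others of its members had RNAPII in every library. The 7 neighbours ZNF676, ZNF729, ZNF98, ZNF492, ZNF99, ZNF723 and ZNF728 formed an unbroken run with no promoter peak of either kind. In the group from ZNF653 to ZNF791 (26 members) the medians were 12 and 20, and 22 members had RNAPII in every library. The group from ZNF628 to ZNF446 (59 members) had medians of 11 and 20, with 1 member without RNAPII. The groups from ZNF575 to ZNF296 (24 members) and from ZNF175 to ZNF331 (40 members) lay between, with medians of 6 and 14.5 and of 6 and 19. These are descriptions of neighbouring duplicates that share sequence, and no test was made between groups.

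**Figure D2:**
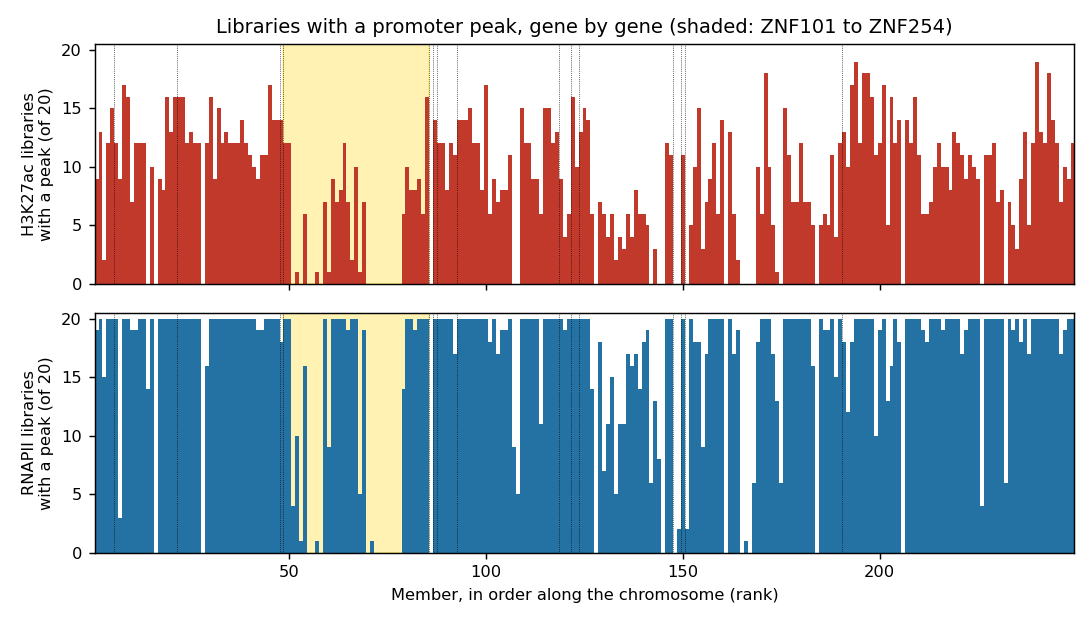
Number of H3K27ac libraries (top) and RNAPII libraries (bottom), out of 20, with a promoter peak at each of the 249 members in order along chromosome 19. Dotted lines mark gaps of over 1 Mb and shading marks the 37 members from ZNF101 to ZNF254, of which 11 have no RNAPII bar and 14 have no H3K27ac bar.

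In the plot of libraries by gene order, the empty stretch inside the shaded group is the run from ZNF676 to ZNF728. Reads that aligned to several places were discarded by the authors, so the share of 50-base windows around each start that occur once in the genome was computed. Only exact matches were counted. The alignment allowed mismatches, so the part a read could reach may be smaller. The share had a median of 98.2% over all members and 94.9% over the members without RNAPII, with 82.8% at the lowest of the latter. The part of such repeats in the missing peaks was not tested.

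The promoters, read from 250 bases before to 50 after the start on hg19, had a median GC content of 59.3%, against 63.7% over all protein-coding genes. Their observed-to-expected CpG ratio, a measure of CpG density, had a median of 0.767, near the 0.773 of all genes. In the group from ZNF101 to ZNF254 it was 0.457. Members without RNAPII had a median ratio of 0.612 and those with RNAPII in at least 1 library 0.780, whereas the 5780 protein-coding genes without RNAPII had 0.276. The letters CCGGAAG, a core of ETS factor sites, were present on either strand in 111 members (44.6%), against 14.01% of all promoters, 31.6% of the numbered ZNF genes elsewhere and 15.2% of the other genes of chromosome 19. CCAAT was present on either strand in 52.6% of the members and 35.9% of all promoters, and TATAAA in 3.21% and 9.80%. Within the group from ZNF101 to ZNF254, 97.3% had CCAAT and 67.6% CCGGAAG, while CCGGAAG was present in 7.69% of the members from ZNF653 to ZNF791.

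In that group both motifs stood in a fixed arrangement. CCAAT was followed by CTTCCGG, the reverse complement of CCGGAAG, with exactly 34 bases from the first letter of CCAAT to the first letter of CTTCCGG, in 23 of 37 members (62.2%). The same spacing was found in 0 of the 212 other members and in 33 of 20163 promoters in all (0.164%). The 10 other promoters were those of ZNF107, ZNF138, ZNF273, ZNF680, ZNF92 and ERV3-1 on chromosome 7, ZNF141 and ZNF595 on chromosome 4, ZNF195 on chromosome 11 and ZNF519 on chromosome 18, of which ERV3-1 was the only gene not named ZNF. The spacing was chosen as the most frequent after the distances had been seen, and the next most frequent, 63 bases, was found 24 times, 14 of them in the group. It was present in 9 of 14 group members with RNAPII in every library, in 8 of 12 with RNAPII in 1 to 19 libraries and in 6 of 11 with RNAPII in none, so it was found in promoters with and without a peak. The sequences below are the 100 bases before the start of 4 such members with RNAPII in every library and of 4 with none, shown so that the marked and unmarked promoters can be read against each other. CCAAT and CTTCCGG are in capitals.
ZNF254 (chr19:24269889-24269988, plus strand): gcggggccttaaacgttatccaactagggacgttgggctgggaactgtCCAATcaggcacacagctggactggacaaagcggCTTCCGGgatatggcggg
ZNF724 (chr19:23433197-23433296, minus strand): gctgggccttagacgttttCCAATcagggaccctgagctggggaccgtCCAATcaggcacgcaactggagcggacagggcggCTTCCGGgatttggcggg
ZNF430 (chr19:21203363-21203462, plus strand): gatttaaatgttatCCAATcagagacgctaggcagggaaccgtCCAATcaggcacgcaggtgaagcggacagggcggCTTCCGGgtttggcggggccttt
ZNF681 (chr19:23941694-23941793, minus strand): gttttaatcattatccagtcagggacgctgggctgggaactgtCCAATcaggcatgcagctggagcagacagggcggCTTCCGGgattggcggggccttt
ZNF208 (chr19:22193746-22193845, minus strand): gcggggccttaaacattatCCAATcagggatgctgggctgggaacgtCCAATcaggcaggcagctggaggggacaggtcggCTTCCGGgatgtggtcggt
ZNF486 (chr19:20277923-20278022, plus strand): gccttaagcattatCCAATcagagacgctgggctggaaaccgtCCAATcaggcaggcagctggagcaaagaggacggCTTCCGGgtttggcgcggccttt
ZNF492 (chr19:22817026-22817125, plus strand): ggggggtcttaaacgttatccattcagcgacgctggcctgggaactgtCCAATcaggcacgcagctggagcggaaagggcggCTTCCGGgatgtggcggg
ZNF723 (chr19:23014993-23015092, plus strand): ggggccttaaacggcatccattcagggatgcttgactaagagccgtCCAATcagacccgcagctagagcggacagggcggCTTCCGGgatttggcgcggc

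The first 4 of these promoters, ZNF254, ZNF724, ZNF430 and ZNF681, had RNAPII in 20 libraries and H3K27ac in 16, 10, 9 and 9, while ZNF208, ZNF486, ZNF492 and ZNF723 had neither. Over 67 bases aligned at CTTCCGG, the 28 pairs of these 8 sequences were 64.2% to 91.0% identical (median 80.6%). The promoters of ZNF274 and ZNF865, which had H3K27ac in 19 libraries and RNAPII in 20, and of ZNF536, which had neither, are printed for contrast. CTTCCGG is in capitals and ZNF536 holds neither CCAAT nor CTTCCGG in these 100 bases.
ZNF274 (chr19:58694328-58694427, plus strand): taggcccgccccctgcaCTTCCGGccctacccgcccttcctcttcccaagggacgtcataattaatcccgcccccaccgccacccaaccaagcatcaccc
ZNF865 (chr19:56116913-56117012, plus strand): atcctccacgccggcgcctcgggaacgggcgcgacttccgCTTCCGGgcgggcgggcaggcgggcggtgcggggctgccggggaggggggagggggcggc
ZNF536 (chr19:30863191-30863290, plus strand): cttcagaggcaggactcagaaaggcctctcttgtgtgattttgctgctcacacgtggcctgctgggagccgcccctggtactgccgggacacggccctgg

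Peaks stood in the usual order around the start. Over 3942 pairs of a member and a library, the summit of the highest RNAPII peak lay a median of 42 bp downstream of the canonical start, and 76.3% lay within 150 bp of it (64.7% over all genes, median 29 bp). H3K27ac summits lay a median of 162 bp downstream (148 bp over all genes), with 25.8% within 150 bp. HA summits lay a median of 16.5 bp upstream (-16.5; -64 over all genes). Peaks at the members were narrower than those at all genes, with median widths of 595.5 bp against 703 bp for H3K27ac, 602.5 bp against 687 bp for RNAPII and 466.5 bp against 519 bp for HA.

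**Figure D3:**
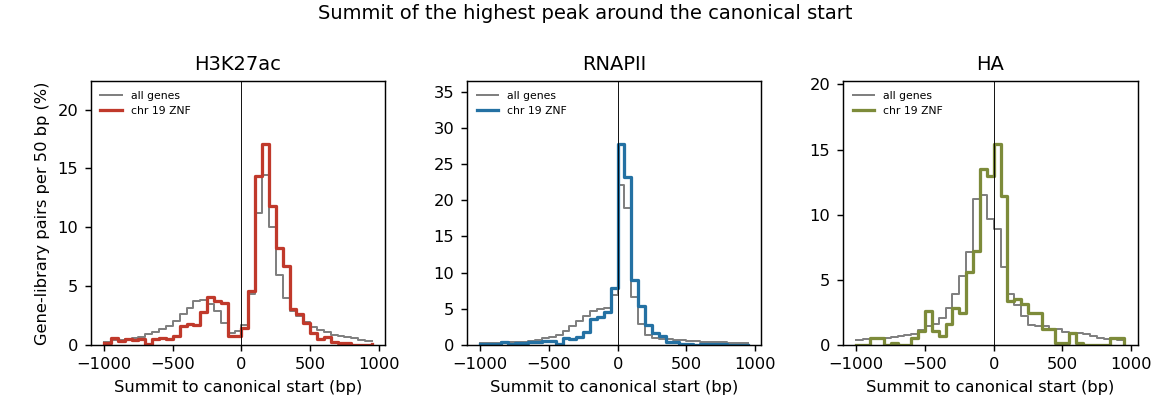
Distance from the canonical start to the summit of the highest promoter peak (horizontal axis, bp, downstream positive) for H3K27ac, RNAPII and HA, as the percentage of gene-library pairs per 50 bp (vertical axis), with the members in colour and all protein-coding genes in grey. The RNAPII curve of the members peaks just after the start, with a median of 42 bp, and the H3K27ac curve further downstream, with a median of 162 bp.

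The curves of summit distance show that the upstream shoulder of the grey RNAPII curve is lower for the members: 11.4% of the members' RNAPII summits lay over 150 bp upstream, against 23.6% over all genes.

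The first comparison set dCas9-VP16(10x) against dCas9-p300(core) for H3K27ac. At ZNF649 (chr19:52392488-52408293), a KRAB repressor, H3K27ac was listed in 10 of 10 VP16(10x) libraries, with folds of 6.57 to 22.0 (median 13.1), and in 0 of 10 p300(core) libraries. ZNF426 had a peak in 9 and 0 libraries. The adjusted p was 0.0612 for both genes (Fisher's exact test, two-sided, Benjamini-Hochberg over 13360 genes), and 0 of 212 members passed an adjusted p of 0.05, with 0% of all genes tested called. At an unadjusted p under 0.05 there were 84 members (39.6%), against 25.3% of the genes tested, all with more VP16(10x) libraries. Of the 212 members, 209 had more VP16(10x) than p300(core) libraries and 0 had fewer, the median difference in the share of libraries being 0.5 for the members and 0.4 for all genes. The VP16(10x) lists were also the longer, with a median of 25025 peaks against 6143, and the part of list length in the difference was not tested. The count of calls depended on which libraries were fitted, and leaving out 1 library gave 0 to 107 members. Without VP16(10x) Pool 3 replicate 1, 107 of 212 members and 5565 of 13345 genes were called. Leaving out p300(core) Adjacent replicate 1 gave 97 members (5239 of 13161 genes), Adjacent replicate 2 gave 71 (2925 of 13349) and IL1RN replicate 1 gave 73 (3042 of 13309). Leaving out VP16(10x) IL1RN replicate 1 or Pool 1 replicate 1 gave 18 and 15 members (507 of 13346 and 376 of 13357 genes), and leaving out p300(core) Pool 1 replicate 1, Pool 1 replicate 2 or Pool 2 replicate 1 gave 2, 2 and 3. Without Pool 1 replicate 2 of VP16(10x), whose construct is in doubt, 0 members were called. In the libraries without a run identifier 115 of 201 members and 6377 of 11595 genes were called, and in those with an identifier 0 of 194 members and 0 of 11776 genes. Outside the Adjacent pool, replicate 1 H3K27ac libraries carried a run identifier and replicate 2 libraries did not. Limma on presence with replicate number as a block called 153 members. The share of all genes is not given for this fit or for the counts of 2, 2 and 3 above. These counts therefore do not set the members apart from other genes.

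H3K27ac height could be compared at the 22 members with a peak in at least 16 libraries, with limma on centred log2 fold enrichment and gRNA pool as a covariate. None of the 22 passed an adjusted p of 0.05 (limma), where 0% of 2482 genes did, and 3 members had an unadjusted p under 0.05. These were ZNF254, with a log2 difference of -0.67 (SE 0.22, adjusted p = 0.412, limma), ZNF653, with -0.62 (SE 0.26, adjusted p = 0.458, limma), and ZNF497, with 0.41 (SE 0.16, adjusted p = 0.454, limma). They are named here after their values were seen.

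For RNAPII, presence differed between the constructs at 2 of 86 members tested (2.33%), where 3.15% of the 5903 genes tested were called. ZNF223 (chr19:44555520-44572152) had a peak in 10 of 10 VP16(10x) libraries, with folds of 4.90 to 10.6 (median 6.17), and in 1 of 10 p300(core) libraries, with a fold of 7.71. ZNF350 (chr19:52467593-52490109), which encodes a KRAB protein known to interact with BRCA1, had a peak in 9 of 10 and 0 of 10 libraries, with folds of 4.02 to 11.1 (median 5.86). Both passed the test (adjusted p = 0.00976, Fisher's exact test), and among all genes 0.39% were called in that direction and 2.76% in the other. Both are weak peaks, and with only peaks of a -log10 p of at least 20 kept neither was called.

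RNAPII height was fitted for the 189 members with a peak in at least 16 libraries. After centring, 63 of these (33.3%) were higher and 6 (3.17%) lower with VP16(10x) at an adjusted p under 0.05 (limma), where 13.7% of the 11063 genes fitted were higher, 10.8% lower and 24.5% called in either direction. The median log2 difference was 0.27 over the members fitted and -0.01 over all genes fitted. Numbered ZNF genes elsewhere had 14.98% higher and a median of 0.08. Since run identifier and construct cannot be told apart, these are differences between sets of libraries.

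The 3 largest increases among the members called were at ZNF224, ZNF738 and ZNF675. ZNF224 (chr19:44598514-44614039), a KRAB repressor first described for the aldolase A gene, had raw folds of 7.75 to 21.6 (median 12.1) in 10 VP16(10x) libraries and of 4.25 to 9.07 (median 6.32) in the 7 p300(core) libraries with a peak. Its centred log2 difference was 1.60 (SE 0.28, adjusted p = 0.00121, limma), with 3 p300(core) libraries missing from the fit. ZNF738 (chr19:21541732-21571384) ran from 8.92 to 21.3 (median 17.1) and from 7.45 to 27.2 (median 11.9, 9 libraries), with a log2 difference of 1.13 (SE 0.26, adjusted p = 0.00550, limma). ZNF675 (chr19:23708433-23870022) ran from 6.496 to 10.1 (median 8.34, 9 libraries) and from 5.02 to 13.8 (median 5.93), with a log2 difference of 1.05 (SE 0.18, adjusted p = 0.00108, limma). The raw ranges of ZNF738 and ZNF675 overlapped, and the highest library of each was a p300(core) library. Without centring their differences were 0.37 (adjusted p = 0.148, limma) and 0.28 (adjusted p = 0.231, limma), and with only the VP16(10x) libraries without a run identifier 0.30 (adjusted p = 0.647, limma) and 0.73 (adjusted p = 0.313, limma). ZNF865 (chr19:56117013-56128635), named after its value was seen, had the lowest adjusted p of the members, with raw folds of 8.76 to 21.9 (median 14.6) and 7.64 to 16.1 (median 12.5) and a log2 difference of 0.97 (SE 0.13, adjusted p = 0.000191, limma).

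The 3 largest decreases among the members called were those of ZNF580 and ZNF581, which are the same peak, and ZNF441. The shared peak of ZNF580 and ZNF581 had a log2 difference of -0.54 (SE 0.16, adjusted p = 0.0212, limma). ZNF441 (chr19:11877815-11894893) had raw folds of 5.94 to 13.3 (median 11.96) with VP16(10x) and 8.88 to 45.3 (median 24.3) with p300(core), and a log2 difference of -0.51 (SE 0.11, adjusted p = 0.00303, limma). ZNF507 (chr19:32836500-32878573) had -0.45 (SE 0.12, adjusted p = 0.0102, limma), and is named after its value was seen. With only the VP16(10x) libraries that carry a run identifier the shared peak was at -0.35 (adjusted p = 0.0777, limma), and with only those without one ZNF441 was at -0.59 (adjusted p = 0.0592, limma).

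The group from ZNF101 to ZNF254 held 16 of the higher members out of 18 fitted, with a median log2 difference of 0.73, while in the 171 other members fitted 47 (27.5%) were higher, 6 were lower and the median was 0.18. Without centring 0 of the 18 were higher and their median was 0.0019. ZNF682, with -0.53 (SE 0.19, adjusted p = 0.0525, limma), and ZNF101, with 0.27, were the 2 of the group not called. ZNF175 to ZNF331 had 16 of 29 higher and a median of 0.51, and ZNF628 to ZNF446 had 9 of 53 higher, 3 lower and a median of 0.01. Taken by library, the median deviation of the group's 18 genes from their own means was 0.44 to 0.59 in the 7 VP16(10x) libraries with a run identifier and -0.19, -0.13 and 0.43 in the 3 without. In the 10 p300(core) libraries it ran from -1.09 to 0.29 (median -0.32). The p300(core) libraries thus overlapped the VP16(10x) libraries without an identifier and not those with one. Against all p300(core) libraries, the 3 VP16(10x) libraries without an identifier gave 0 of 18 group members higher and a median of 0.35. In all they gave 7 of 183 members higher and 3 lower, where 3.34% of 10913 genes were higher and 10.1% lower, a comparison chosen after the data had been seen.

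**Figure D4:**
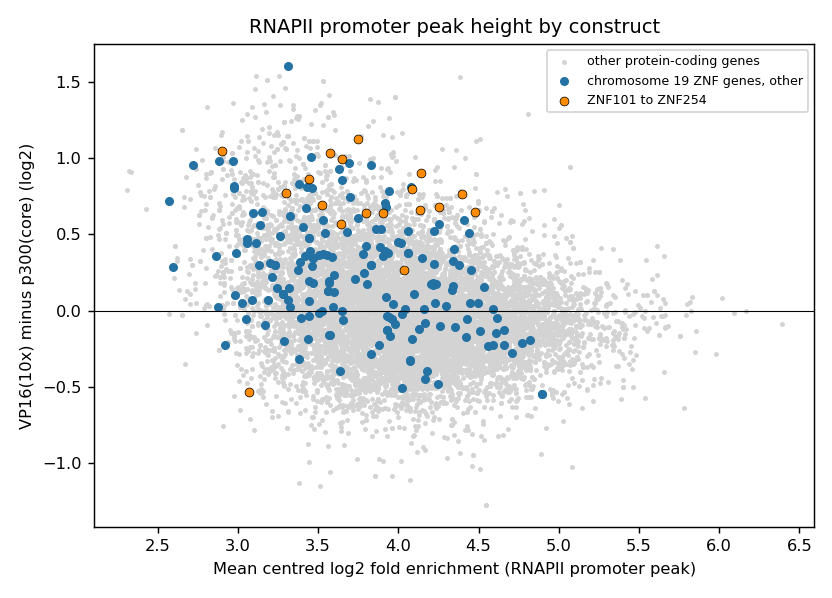
Log2 difference in RNAPII promoter peak height between the constructs (vertical axis, VP16(10x) minus p300(core)) against mean centred log2 fold enrichment (horizontal axis) for 11063 protein-coding genes, with 171 members in blue and the 18 members from ZNF101 to ZNF254 in orange. Of the orange points 17 lie above 0, and the blue points have a median of 0.18.

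**Figure D5:**
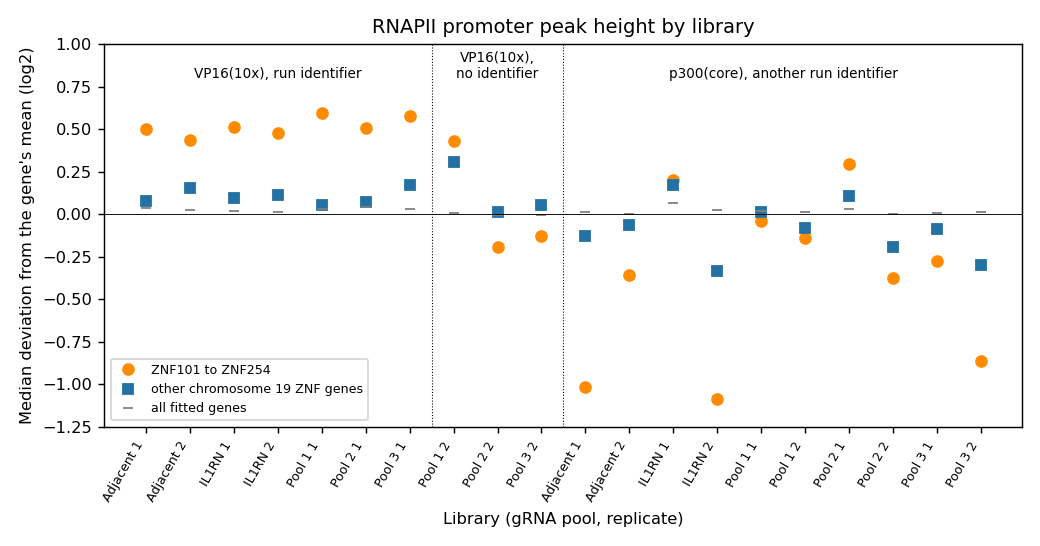
Median deviation of centred log2 RNAPII height from each gene's mean (vertical axis) in each of 20 libraries (horizontal axis, gRNA pool and replicate), for the 18 members from ZNF101 to ZNF254, the 171 other members and all 11063 genes fitted. The 7 VP16(10x) libraries with a run identifier sit between 0.44 and 0.59 for the first set, and the 10 p300(core) libraries between -1.09 and 0.29.

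The scatter of differences also shows where the members lie among all genes, which bears on their counts. Across the 11063 genes the log2 difference was related to mean height (r = -0.29) and to promoter GC content (r = -0.33), as a description over genes that share 20 libraries. Among genes in the lowest tertile of height 36.0% of 100 members and 22.3% of all genes were higher with VP16(10x). In the middle tertile the shares were 35.6% of 59 and 11.95%, and in the highest 6 of 30 members and 6.89%. By promoter GC, they were 37.9% of 124 members against 25.3% of genes in the lowest tertile, 21.4% of 56 against 10.5% in the middle and 4 of 9 members (44.4%) against 5.12% in the highest. The members' share was above that of all genes in each of these 6 classes. The part of height, GC content or what the run identifier marks in the difference was not tested further. The sign also rests on the centring: without it the median over the members was -0.51, against -0.75 over all genes, with 1 of 189 members higher and 96 lower, where 0.443% of all genes fitted were higher and 78.8% lower.

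The second comparison set the 16 libraries with targeted gRNAs against the 4 with IL1RN gRNAs. For H3K27ac presence 0 of 212 members were called (0% of 13360 genes, Fisher's exact test) and 0 had an unadjusted p under 0.05. For RNAPII presence the count was 0 of 86 (0% of 5903 genes), with 0 at an unadjusted p under 0.05. With 4 IL1RN libraries, even complete separation at a single gene could not pass after adjustment over this many genes. The presence tests therefore could not decide whether single members differed. By height, limma called 0 of 22 members for H3K27ac (0% of 2482 genes) and 0 of 189 for RNAPII (0% of 11063 genes), with 1 and 3 members at an unadjusted p under 0.05. The median log2 difference over the members was -0.02 for both antibodies. The difference of this effect between the constructs was called at 0 of 20 and 0 of 186 members fitted (limma), with 0 and 8 at an unadjusted p under 0.05.

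Members known to bind retroelements differed widely in their promoter marks. ZNF91 (chr19:23487793-23578273), which binds SVA elements, had RNAPII in 20 libraries, H3K27ac in 8 and HA in 3, while ZNF93, which binds LINE-1 elements, had RNAPII in 1 library, H3K27ac in 0 and HA in 1. ZNF417 and ZNF587, which are close paralogs, had RNAPII in 19 and 20 libraries and H3K27ac in 5 and 7, with 75.1% and 80.9% of the windows around their starts unique in the genome, so that their values are less certain. ZNF649 had RNAPII in 18 libraries and H3K27ac in 10. At ZNF91 the RNAPII fold ran from 13.0 to 28.8 (median 22.8) with VP16(10x) and from 17.1 to 42.8 (median 19.1) with p300(core), and the centred log2 difference was 0.65 (SE 0.20, adjusted p = 0.0234, limma). ZNF91 was the only 1 of 4 fitted genes of the list that was called. Without centring the ZNF91 difference was -0.08 (adjusted p = 0.736, limma). Without p300(core) Adjacent replicate 1 it was 0.55 (adjusted p = 0.0540) and without p300(core) Pool 3 replicate 2 it was 0.56 (adjusted p = 0.0533, limma).

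Of 9 members whose promoters are often hypermethylated in carcinomas, 7 had both marks in at least 1 library each in this carcinoma line. Over all members that share was 85.1%, as none had H3K27ac without RNAPII. ZNF331, ZNF382, ZNF577 and ZNF671 had RNAPII in 20 libraries and H3K27ac in 12, 12, 5 and 11. ZNF582 had 19 and 12, ZNF132 17 and 7, and ZNF471 16 and 16. ZNF154 and ZNF177 had RNAPII in 4 and 14 libraries and H3K27ac in none, and none of the 7 fitted for RNAPII height was called between the constructs (limma), with log2 differences of -0.29 to 0.52.

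ZNF274 (chr19:58694396-58724928), which binds the zinc finger coding ends of other members, was among the most regularly marked, with H3K27ac in 19 libraries, RNAPII in 20 and HA in 3. Its RNAPII fold ran from 7.73 to 26.8 (median 20.3) with VP16(10x) and from 15.6 to 43.1 (median 37.8) with p300(core). After centring the log2 difference was -0.23 (SE 0.11, adjusted p = 0.150, limma). ZNF536 (chr19:30715798-31204493), a neural gene that stands by itself on the chromosome, had no promoter peak of any antibody. The partners of the KRAB proteins had both marks in part of the libraries at least: 18 genes of the corepressor pathway, TRIM28, SETDB1, CBX1, CBX3, CBX5 and HDAC1 among them, had H3K27ac in 6 to 20 libraries (median 16, against 8 over all genes), and 14 of them had RNAPII in every library, as 42.1% of all genes did. CBX3, a heterochromatin protein, was the only 1 of the 18 with H3K27ac in every library. SETDB1, a histone methyltransferase, had it in 8 of 10 VP16(10x) and 0 of 10 p300(core) libraries, ATRX in 8 and 1 and DAXX in 10 and 1. No gene of the pathway had it in more p300(core) libraries, and the VP16(10x) lists were the longer. Of 17 tested for H3K27ac presence 0 were called between the constructs (Fisher's exact test), as were 0% of all genes tested. Of 16 fitted for RNAPII height 3 were higher and 0 lower with VP16(10x) (limma), where 13.7% and 10.8% of all genes fitted were. TRIM28 had H3K27ac in 17 libraries, RNAPII in 20 and HA in 5. For its HA normalization the paper used the TRIM28 promoter as 1 of its control regions of background signal.

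HA peaks lay at many of these promoters in every dCas9-VP16(10x) list. The share of members was 21.7% in ERBS replicate 1, 37.8% in IL1RN, 22.1% in Adjacent replicate 1, 76.3% in Adjacent replicate 2 and 79.5% in ERBS replicate 2, against 23.5%, 32.6%, 19.6%, 65.9% and 67.3% of all genes. The lists held 6184, 8149, 4785, 25109 and 30740 peaks, and the members' share was above that of all genes in 4 of the 5 lists. Numbered ZNF genes elsewhere were above the members in every one of these lists, with 32.7%, 48.5%, 27.8%, 79.3% and 83.5%. The other genes of chromosome 19 had 27.5%, 38.1%, 25.2%, 65.4% and 66.6%. HA was listed in at least 1 list for 204 members and in none for 45 (18.1%, against 31.5% of all genes and 16.2% of the numbered ZNF genes elsewhere). ZNF160 (chr19:53569859-53606687) led the 6 named members with HA in 5 lists, with folds of 16.5, 15.8, 15.5, 28.9 and 36.2 in the order ERBS replicate 1, IL1RN, Adjacent replicate 1, Adjacent replicate 2 and ERBS replicate 2. ZNF787 followed with 15.2, 13.3, 11.4, 36.0 and 36.9, and ZNF558, ZNF846, ZNF549 and ZNF627 had folds of 6.92 to 58.9. The IL1RN list, whose gRNAs have no ERBS target, is among these 5 lists, so its peaks at all 6 follow from how they were chosen. No test per gene was made for HA, with 1 or 2 lists per group.

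Away from the starts, H3K27ac and HA peaks were found at smaller shares of these genes than of all genes. H3K27ac body peaks were found in at least 1 library at 39 members (15.7%), against 27.6% of all genes, 47.5% of the other genes of chromosome 19 and 31.2% of the numbered ZNF genes elsewhere, and in at least 10 libraries at 8. RNAPII body peaks were found at 95 (38.2%, against 40.1%, 62.4% and 49.2%), with 33 in at least 10 libraries, and HA body peaks at 11 (4.42%, against 18.6%, 36.4% and 16.9%). The median member was 25932 bp long, all genes 27219 bp and the other genes of chromosome 19 13781 bp. The last exon, which in these genes codes for the finger array, held 32.1% of the members' H3K27ac body peaks and 32.2% of their RNAPII body peaks, against 9.60% and 22.2% over all genes and 23.7% and 34.9% over the numbered ZNF genes elsewhere. These shares count a peak once per library and once per gene it overlaps, so that recurrent sites weigh more. The members' 268 H3K27ac and 1377 RNAPII body peaks came from 39 and 95 members. Of their 35 HA body peaks, from 11 members, 0 lay in the last exon, against 11.7% over all genes.

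Several of the most regular body peaks lay at other transcripts. RNAPII was listed in 20 libraries in the body of ZNF83 at chr19:53103450-53105797, 44 bp from the start of a long non-coding RNA, with folds of 6.49 to 38.4. In ZNF584 (chr19:58912210-58913203, folds 10.3 to 36.0) the peak lay 1 bp from the start of a non-coding transcript of the gene, and in the read-through gene ZNF816-ZNF321P (chr19:53445502-53446528, folds 6.42 to 31.3) it lay 35 bp from the start of the pseudogene ZNF321P. The peak in ZNF709 (chr19:12605736-12606813) was 7211 bp from the nearest annotated start and outside the last exon. Its RNAPII folds ran from 8.26 to 28.9 (median 15.3) in 20 libraries, H3K27ac was listed there in 11 libraries (7.73 to 24.8) and HA in 4 (7.39 to 33.6). ZNF490 and ZNF497 also had RNAPII body peaks in 20 libraries, those of ZNF497 at chr19:58865977-58868963 in the last exon and 3 bp from the start of a long non-coding RNA. For H3K27ac the members with a body peak in the most libraries were ZNF83 (19), ZNF816-ZNF321P (16), ZNF586 (13) and ZNF283, ZNF430 and ZNF709 (11 each, tied with ZNF787, with ties broken by symbol), and the peak of ZNF283 lay in its last exon.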

How the data were processed

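The authors aligned 50-base single-end reads to hg19 with Bowtie (1.1.2), kept reads with 1 placement, removed duplicates and called peaks per library with MACS2 (2.1.0.20140616; versions per the submitters' processing notes). The deposited lists give each peak's fold enrichment, a ratio over background, and its -log10 p, as written by the authors' peak caller; the lowest -log10 p was 10.0. Read counts were not used here. All 47 lists were grouped by their labels. The highest peak within 1 kb of any start of a protein-coding transcript (GENCODE release 44 on hg19) was taken per gene and library. Presence was compared with Fisher's exact test and log2 fold enrichment with limma (3.58.1; trend, gRNA pool as covariate), for genes with a peak in at least 16 of 20 libraries, with libraries lacking a peak treated as missing and each library centred on genes with a peak in every library. Adjusted p-values are Benjamini-Hochberg over all genes tested, with a threshold of 0.05. The labels do not say whether replicates are separate cultures, so p-values measure the spread between these libraries. Both pipelines were tested on simulated data. Named members were those with the tallest RNAPII peaks (5), RNAPII in at least 18 and H3K27ac in at most 2 libraries (and the reverse, up to 6 each), the 3 largest called changes per direction, up to 6 with HA peaks in the most lists, up to 6 per antibody with body peaks in the most libraries, and lists of retroelement binders, often hypermethylated promoters and corepressors. The members and lists were chosen with earlier results of these data known.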

Additional observations from a re-analysis of the deposited data

Results flagged for a closer look

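Of 36 groups of libraries examined, 3 held a value whose gap to the nearest other, relative to the group's range, was beyond Dixon's limit, which chance exceeds in about 1 of 20 groups. In H3K27ac, 11.6% of the members had a promoter peak in dCas9-VP16(10x) Pool 3 replicate 1, against 51.8% to 84.7% in the 9 other libraries of that construct. This list is also the shortest of the construct, with 5322 peaks. In RNAPII, the centred log2 height of ZNF302 was 4.36 in dCas9-p300(core) Pool 1 replicate 1 and 4.78 to 5.13 in the other p300(core) libraries. The centred log2 height of ZNF567 was 5.61 in dCas9-p300(core) IL1RN replicate 1 and 4.59 to 4.92 in the others.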

How the results depend on the processing

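Over 25 results, 164 of 192 values under other settings stayed within their margin and 28 did not. Causes were not tested beyond what each setting changes. The counts of members below show how far each result moved. Without the share of all genes beside them, they do not set the members apart from other genes. H3K27ac presence between constructs gave 3 members called with 500 bp windows, 1 each with 2 kb windows, only the 5′-most start or a -log10 p of at least 20, 115 in libraries without a run identifier, 153 by limma with the replicate block, and 0 to 107 leaving out 1 library (without p300(core) Adjacent replicates 1 and 2, 97 and 71; IL1RN 1, 73; Pool 1 replicates 1 and 2, 2 each; Pool 2 replicate 1, 3; without VP16(10x) IL1RN 1, 18; Pool 1 replicate 1, 15; Pool 3 replicate 1, 107). H3K27ac height gave 2 without centring and 1 with quantile normalization.

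RNAPII presence gave 0 at a -log10 p of at least 20, 4 over genes with 3 to 17 libraries, 10 by limma with the replicate block, and 2 to 7 leaving out 1 library (p300(core) IL1RN 1, 7; Pool 1 replicate 2 and Pool 3 replicate 1, 6 each; both Pool 2 replicates, 5 each; VP16(10x) Pool 2 replicate 1, 4). Without centring, RNAPII height gave 1 member higher and 96 lower, a median of -0.51 over the members and a difference of -0.0816 at ZNF91, 0 higher in the ZNF101 to ZNF254 group and a group median of 0.0019. Quantile normalization gave 37 higher and 12 lower. The group median was 0.93 from -log10 p. With VP16(10x) libraries with a run identifier 13 members were lower and the group median was 0.94; with those without, 10 were called (7 higher, 3 lower), 0 in the group, with a group median of 0.35. Both were chosen after seeing the data. Leaving out 1 library gave 47 to 83 higher and 4 to 10 lower (10 without VP16(10x) Pool 2 replicate 2).

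Deviations of same-numbered libraries correlated over 0.1 in 29 of 45 pairs of groups for H3K27ac and 13 of 45 for RNAPII. The median r was 0.31 for H3K27ac (range -0.53 to 0.91) and 0.03 for RNAPII (range -0.40 to 0.72). Replicate numbers thus went with shared deviations in part of the H3K27ac groups, and the main tests held no replicate block. The replicate block moved the RNAPII height calls from 69 to 77 and changed no other count of height calls by over 1.5 times. Body peaks over 5 kb from a start were found at 24 members (H3K27ac, any library) and 21 (RNAPII, at least 10 libraries). H3K27ac in every library was found at 0 to 1 members (1 without p300(core) Pool 2 replicate 2 or Pool 3 replicate 2), and HA in 3 or more lists at 60 to 113 (60 without VP16(10x) Adjacent replicate 2 or ERBS replicate 2). A block for the run identifier could not be fitted beside the construct for RNAPII. Read depth is unknown, so a missing peak means not listed above the caller's threshold.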
